A study of Homo sapiens with 94 samples.

Results

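The comparison described here set HEK293 cells exposed to long-wave ultraviolet light (UVA) against HEK293 cells left untreated, and read the sense-strand RNA of every annotated gene. It took 6 of the 94 samples of the series, 3 UVA samples and 3 untreated samples, chosen by their labels alone, and all 18850 rows of the authors' deposited table for that contrast. UVA cells received 10 kJ/m2 of light at 365 nm every 8 h, 4 times in all. Untreated cells are labelled as given nothing, and their labels show that they also serve as the untreated arm of a 5-aza-2'-deoxycytidine experiment. HEK293 is a human line derived from embryonic kidney, and both groups were the T-REx Flp-In version of it, with the same integrated TET-CD-GFP transgene. Both carry the label HEK293_TET_WT, the wild-type form, and not that of the mutant TETMut-CD-GFP line of the same series. Neither group is labelled as given doxycycline, which switches such transgenes on. The labels state neither the time from the last exposure to harvest nor a mock exposure of the untreated cells, so light and the handling that goes with it cannot be told apart. The wider study asked how 5-hydroxymethylcytosine, an oxidised form of methylated cytosine, relates to transcription. There UVA was also given together with 4-thio-2'-deoxythymidine (thio), a thymidine analogue that makes DNA absorb UVA.

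UVA is absorbed only weakly by DNA. Most of its known effects on cells run through other absorbing molecules, which pass the energy on as reactive oxygen and can alter membranes, signalling kinases and the tryptophan products that activate the aryl hydrocarbon receptor. In skin it is known for oxidative stress, activation of growth factor and MAP kinase signalling, and matrix-degrading enzymes. HEK293 cells are not skin cells, and their p53 protein is bound by adenoviral protein, which blunts the classical p53 response.

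The files hold no value per sample. For each gene the authors' deposited table gives the mean normalised read count over all libraries of one joint fit (called its mean level here), a shrunken log2 fold change of UVA over untreated with its standard error (SE), a p-value and an adjusted p-value, in the columns that DESeq2 writes. Whether the samples of a group overlap can therefore not be seen. The SE is that of the shrunken fold change, and its median over the genes tested was 0.065, against 0.077 before shrinkage. A small SE beside a value near 0 does not by itself show that a gene was measured closely. The depth per sample is not in these tables. The 13685 genes with an adjusted p-value had mean levels between 20.6 and 246513, with a median of 1471. Labels do not say whether the 3 samples of a group came from separate cultures, so the spread behind the p-values may be technical. Because the fit was joint, that spread need not come from the UVA and untreated samples alone. Mean levels are not divided by gene length. They are used to show how well a gene was measured, as a cut-off, to order genes by read number and as a rough guide to marker genes. Of the 17 measured genes known to mark HEK293 cells 16 had a mean level of at least 100, while 10 of 12 blood markers and 11 of 13 keratinocyte and melanocyte markers lay under 10. Of 12 fibroblast and mesenchymal markers 5 lay under 10 and 3 reached 100. Of the markers of other cell types only PMEL, a melanosome gene at a mean level of 90.3, was called (-0.58 ± 0.21, adjusted p = 0.00594 in the authors' deposited table). TET1, one of the genes for the TET dioxygenases that such transgenes derive from, had a log2 fold change of -0.0081 ± 0.059 (adjusted p = 0.905, authors' deposited table).

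UVA raised 1028 genes and lowered 719 at the authors' adjusted p below 0.05, which is 7.51% and 5.25% of the genes tested. The changes were small: the median called gene moved by 0.21 on the log2 scale among those higher and by -0.22 among those lower, and 5 called genes reached a log2 change of 1 in either direction (CTGF, ETV5, EGR1, SPRY4 and COL9A3). In all 35 genes were higher by 0.5 or more and 50 were lower by 0.5 or more. The median over all genes tested was 0.0011. In bulk RNA like this, fewer cells with a transcript and less of it per cell cannot be told apart.

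**Figure D1:**
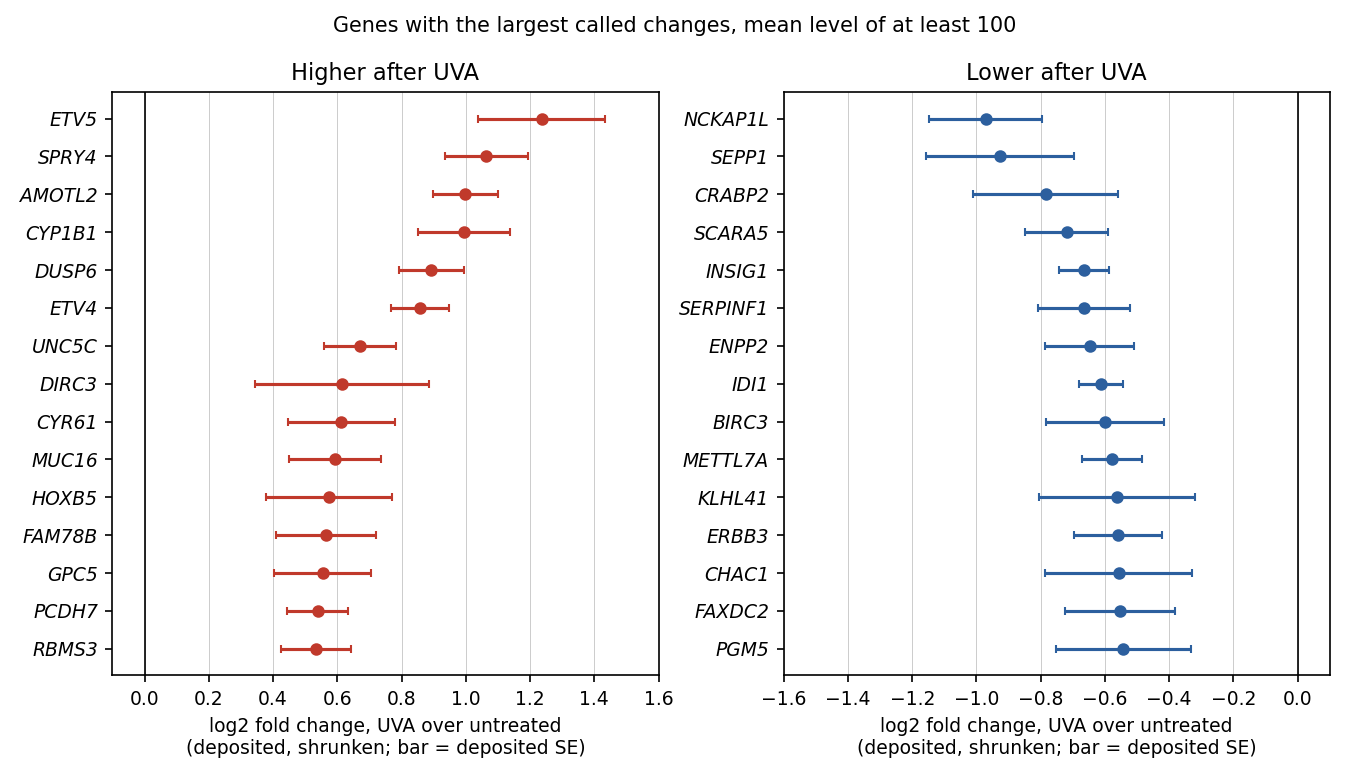
The 15 largest rises (left) and the 15 largest drops (right) among called genes whose mean level reached 100. Points are deposited log2 fold changes of UVA over untreated and bars are deposited SEs. ETV5 leads the higher genes at 1.24 and NCKAP1L the lower genes at -0.97.

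Genes that report ERK activity rose together. ERK is the last kinase of the growth factor cascade, and its output genes include the ETV transcription factors and the SPRY, SPRED and DUSP proteins that dampen the cascade in turn. Of 18 such genes tested, 11 rose, beside 7.51% of all genes tested, 0 fell and 7 did not pass the test. The median member stood at 0.34. The ETS-family factor ETV5 was 2.36 times as high in UVA cells as in untreated cells in the authors' deposited table, a log2 fold change of 1.24 ± 0.20 (adjusted p = 1.79e-08). Its relatives ETV4 and ETV1 had 0.86 ± 0.09 (adjusted p = 2.67e-19) and 0.44 ± 0.074 (adjusted p = 8.89e-08) in the authors' deposited table. Thus all 3 factors of this ETS subfamily rose, each by several times its SE. SPRY4, an inhibitor of receptor tyrosine kinase signalling, had 1.06 ± 0.13 in the authors' deposited table (adjusted p = 1.92e-14). The ERK phosphatases DUSP6 and DUSP5 had 0.89 ± 0.10 (adjusted p = 2.35e-16) and 0.40 ± 0.077 (adjusted p = 3.58e-06) in the same table. The other members that rose were DUSP4, EPHA2, FOSL1, SPRED1 and SPRED2, and the smallest called rise in the list was 0.26.

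Immediate early genes, the transcription factor genes that growth factors and stress switch on within minutes, were called in both directions. Of 26 tested, 5 rose and 1 fell, beside 7.51% and 5.25% of all genes tested, and the list's median was 0.022. The zinc finger factor EGR1 had 1.12 ± 0.32 (adjusted p = 0.00097, authors' deposited table) at a mean level of 66.4. FOS and FOSL1, which encode subunits of AP-1, had 0.55 ± 0.43 (adjusted p = 0.0377) and 0.38 ± 0.36 (adjusted p = 0.0486, authors' deposited table). Shrinkage moved both by over 1.5 times: before it they were 0.86 ± 0.30 and 0.64 ± 0.23, at mean levels of 71 and 64.3. FOSL1 sat at the threshold. JUND, another AP-1 subunit, was the one member that fell (-0.26 ± 0.15, adjusted p = 0.0395 in the authors' deposited table). The EGR1 promoter is shown for its CArG boxes, which bind serum response factor and are in capitals. The window is RefSeq's, 250 bases before to 50 bases after the gene's start, at chr5:138465229-138465528 on the plus strand of GRCh38.p14, and it held 2 CArG boxes that began 105 and 83 bases before the start.
EGR1: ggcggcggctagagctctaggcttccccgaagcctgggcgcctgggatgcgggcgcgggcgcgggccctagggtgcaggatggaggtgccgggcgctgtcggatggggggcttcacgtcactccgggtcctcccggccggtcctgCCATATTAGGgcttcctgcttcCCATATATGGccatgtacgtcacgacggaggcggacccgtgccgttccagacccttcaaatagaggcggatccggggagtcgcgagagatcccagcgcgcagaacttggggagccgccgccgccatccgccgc
Among all 35116 such windows in the table, 1.29% held a CArG box. The box was searched by its name alone, as 2 C, 6 of A or T, and 2 G, which reads the same on both strands.

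YAP and TEAD targets rose as a group. YAP is the transcriptional coactivator that the Hippo kinases restrain, and its target genes reflect cell shape, contact and stiffness of the surroundings. Of 19 targets tested, 12 rose, beside 7.51% of all genes tested, 0 fell and 7 did not pass the test. Their median was 0.22. CTGF, a secreted matrix protein and the standard YAP readout, had the largest rise of all genes called: it was 3.08 times as high in UVA cells as in untreated cells in the authors' deposited table, with a log2 fold change of 1.62 ± 0.21 (adjusted p = 1.24e-12) at a mean level of 91.1. Its relative CYR61 had 0.61 ± 0.17 in the authors' deposited table (adjusted p = 0.000801). AMOTL2, a junction protein that holds YAP back, had 1.00 ± 0.10 (adjusted p = 8.29e-20, authors' deposited table). The Hippo kinase gene LATS2 and the RNA-binding protein gene RBMS3 had 0.30 ± 0.087 (adjusted p = 0.00212) and 0.53 ± 0.11 (adjusted p = 1.67e-05) in that table. CTGF and CYR61 are counted in the immediate early list too, and FOSL1 in both that list and the ERK list. ACTB, cytoplasmic actin, which is often used as a reference gene, rose as well, by 0.39 ± 0.056 in the authors' deposited table (adjusted p = 2.89e-10), while 23 of 25 housekeeping genes did not pass the test. The CTGF promoter (RefSeq symbol CCN2) is shown because it holds 3 TEAD sites, GGAATG or its reverse complement, which are in capitals and began 169, 104 and 95 bases before the start. It lies at chr6:131951323-131951622 on the minus strand of GRCh38.p14.
CTGF: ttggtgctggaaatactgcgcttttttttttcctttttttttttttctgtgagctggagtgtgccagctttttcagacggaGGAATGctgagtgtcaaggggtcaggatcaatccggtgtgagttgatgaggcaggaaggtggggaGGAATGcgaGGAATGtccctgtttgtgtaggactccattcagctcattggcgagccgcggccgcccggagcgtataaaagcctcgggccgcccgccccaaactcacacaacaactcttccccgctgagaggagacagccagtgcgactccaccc
Windows were matched by symbol for 11042 of the 13685 genes tested. A TEAD site was found in 4928 of all 35116 windows, in 1651 of the 11042 matched genes and in 4 of the 9 called YAP targets that had one (AMOTL2, CTGF, LATS2 and PTPN14). These matches are letters in a window and were not tested as binding sites.

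Targets of the aryl hydrocarbon receptor, the ligand-activated factor that turns on xenobiotic metabolism, rose in 3 of 10 cases tested, beside 7.51% of all genes. CYP1B1, a monooxygenase gene of this pathway, was 1.99 times as high in UVA cells as in untreated cells in the authors' deposited table (0.99 ± 0.14, adjusted p = 2.36e-10). CYP1A1, the classical target gene, had 0.87 ± 0.27 (adjusted p = 0.00243, authors' deposited table) at a mean level of only 51.2. TIPARP, a repressor of the receptor that is itself a target, had 0.41 ± 0.075 in the authors' deposited table (adjusted p = 1.12e-06). No member of the list fell, and its median was 0.047. Among the members not called, the receptor's repressor AHRR had 0.048 ± 0.042 (adjusted p = 0.412) and the quinone reductase NQO1 had 0.047 ± 0.081 (adjusted p = 0.487) in the authors' deposited table. At an unadjusted p below 0.05, 4 were higher and 0 lower. The letters of the xenobiotic response element, TNGCGTG on either strand, were in 0 of the 2 promoter windows of called members and in 5.51% of all windows.

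**Figure D2:**
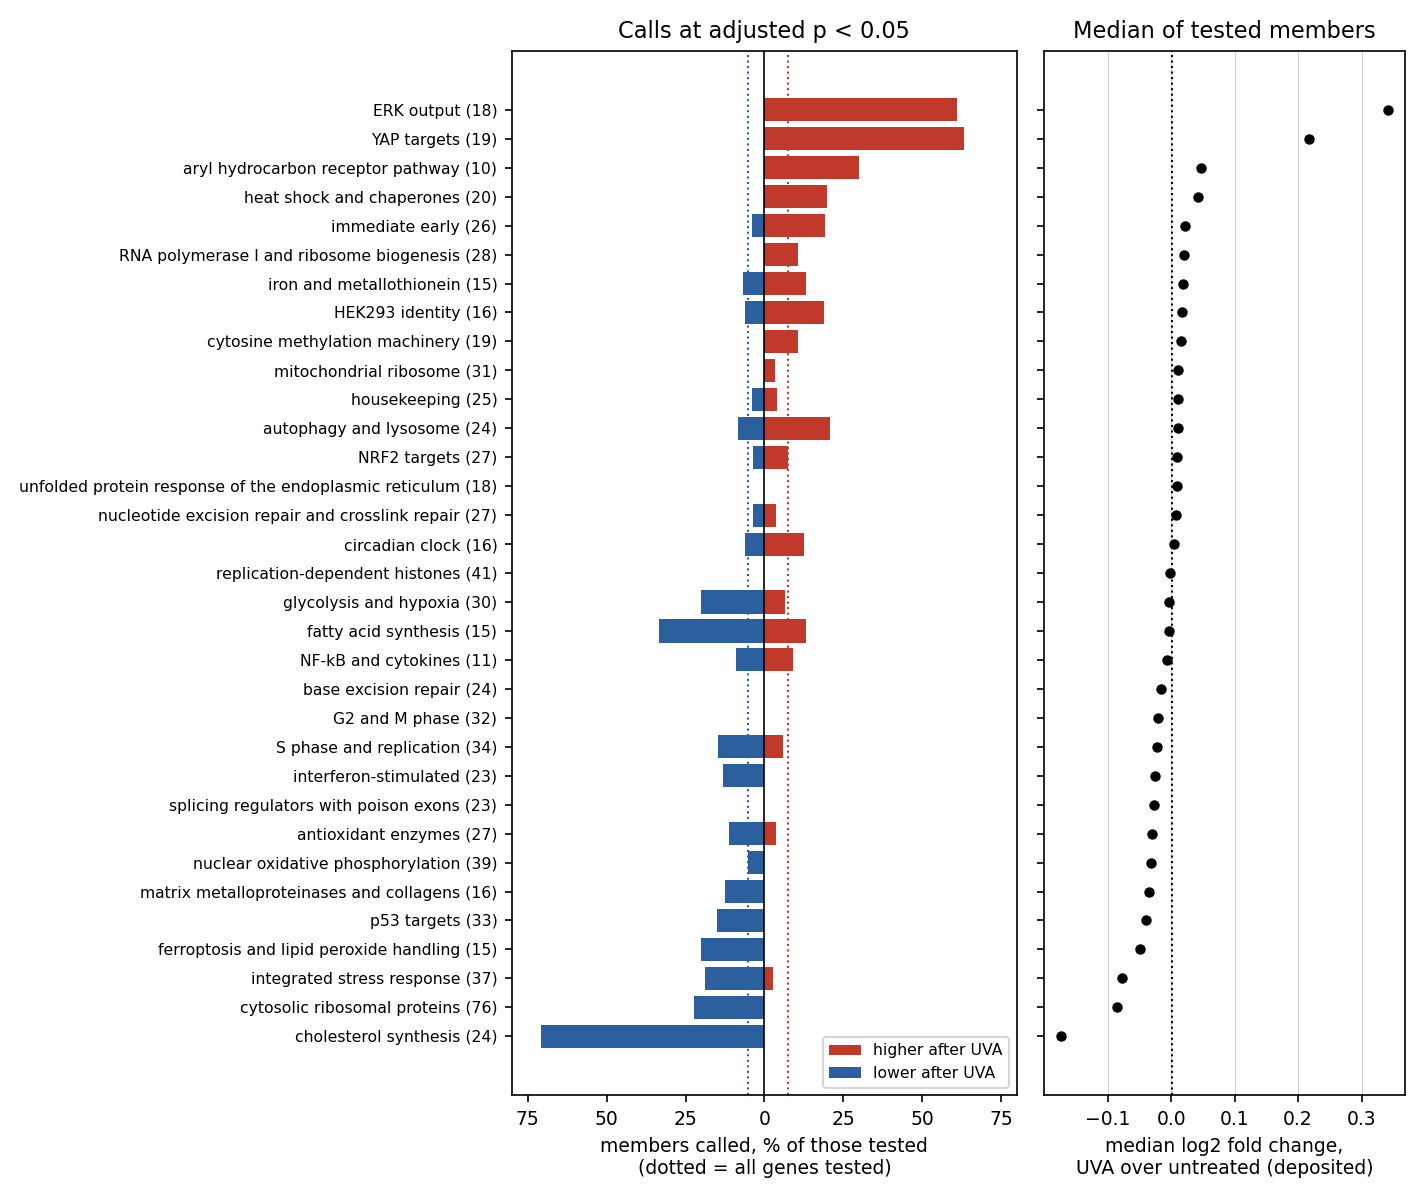
Share of tested members called higher (right bars) or lower (left bars) after UVA in each gene list with at least 10 tested members, the number tested in parentheses, with dotted lines at the shares over all genes tested (7.51% higher, 5.25% lower), and the median deposited log2 fold change of each list. ERK output and YAP targets stand at the top with medians of 0.34 and 0.22, and cholesterol synthesis at the bottom with -0.17.

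Genes of cholesterol synthesis fell together. Their transcription is set by SREBF2, a membrane-bound factor that is released when sterols are scarce, and INSIG1 holds it back when sterols are plentiful while being a target itself. Of 24 genes tested, 17 fell, beside 5.25% of all genes tested, 0 rose and 7 did not pass the test. At an unadjusted p below 0.05 there were 18 lower and 1 higher, and the median member stood at -0.17. INSIG1 had -0.67 ± 0.078 (adjusted p = 1.28e-15, authors' deposited table). IDI1, which isomerises the 5-carbon building block, had -0.61 ± 0.069 (adjusted p = 1.99e-16) in that table, so its level in UVA cells was 0.654 times that in untreated cells. HMGCS1, which makes the precursor of mevalonate, had -0.47 ± 0.064 (adjusted p = 1.34e-11, authors' deposited table). These 3 genes had the smallest adjusted p of the list. The sterol carrier STARD4 had -0.40 ± 0.073 (adjusted p = 7.52e-07), and the later enzymes MSMO1 and CYP51A1 had -0.30 ± 0.063 (adjusted p = 3.41e-05) and -0.22 ± 0.057 (adjusted p = 0.000602) in the authors' deposited table. The other 11 called members, among them SREBF2 itself, lay between -0.23 (SQLE) and -0.12.

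Fatty acid genes, which answer partly to the sister factor SREBF1, were split. Of 15 tested, 5 fell and 2 rose, beside 5.25% and 7.51% of all genes tested. The median of -0.0035 lay near that of all genes. SREBF1 itself had -0.28 ± 0.073 (adjusted p = 0.000647) in the authors' deposited table. The desaturases FADS2, FADS1 and SCD had -0.27 ± 0.075, -0.25 ± 0.079 and -0.21 ± 0.10 in the authors' deposited table, with adjusted p of 0.00149, 0.00386 and 0.0301. Malic enzyme ME1, which supplies NADPH, rose by 0.23 ± 0.06 in that table (adjusted p = 0.000841), and the other riser was FASN, fatty acid synthase. INSIG1, counted in both lists, also fell.

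Promoters of the cholesterol genes are shown for the CCAAT box, the element bound by NF-Y, which acts beside SREBF2 at sterol-regulated promoters, and for the sterol regulatory element itself. INSIG1 (chr7:155297628-155297927, plus strand) held 1 CCAAT box, which began 170 bases before the start, and HMGCS1 (chr5:43313363-43313662, minus strand, the first of 2 windows) held 2, which began 155 and 100 bases before it. All 3 are on the opposite strand and so read ATTGG. SREBF2 (chr22:41832855-41833154, plus strand) held 1 sterol element, TCACNCCAC, 133 bases before its start. Capitals mark the CCAAT boxes in the INSIG1 and HMGCS1 windows and the sterol element in the SREBF2 window, all in RefSeq's GRCh38.p14 table.
INSIG1: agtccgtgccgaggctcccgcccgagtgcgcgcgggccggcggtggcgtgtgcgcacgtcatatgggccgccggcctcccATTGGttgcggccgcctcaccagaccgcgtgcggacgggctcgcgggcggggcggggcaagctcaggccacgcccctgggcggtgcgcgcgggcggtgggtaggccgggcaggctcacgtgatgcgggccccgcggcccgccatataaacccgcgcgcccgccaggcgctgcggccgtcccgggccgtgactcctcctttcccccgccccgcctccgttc
HMGCS1: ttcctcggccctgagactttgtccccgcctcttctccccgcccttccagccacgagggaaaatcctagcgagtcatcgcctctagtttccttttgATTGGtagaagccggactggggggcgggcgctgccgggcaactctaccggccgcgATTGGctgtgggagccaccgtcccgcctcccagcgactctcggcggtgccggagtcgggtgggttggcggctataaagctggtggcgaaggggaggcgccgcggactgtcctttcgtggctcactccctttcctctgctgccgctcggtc
SREBF2: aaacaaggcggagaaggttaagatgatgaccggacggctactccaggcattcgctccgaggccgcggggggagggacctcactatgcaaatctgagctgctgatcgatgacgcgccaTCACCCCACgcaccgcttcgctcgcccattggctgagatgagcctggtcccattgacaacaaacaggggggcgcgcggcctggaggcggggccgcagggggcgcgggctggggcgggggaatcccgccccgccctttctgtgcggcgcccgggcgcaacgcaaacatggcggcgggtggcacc
A CCAAT box on either strand was in the window of 12 of the 13 called cholesterol genes that had one, and of 16 of the 18 tested, against 43.6% of all tested genes with a window and 34.6% of all windows. Lists with no called gene among them also held it often, with 16 of 17 windows for the unfolded protein response, 23 of 26 for G2 and M phase genes and 28 of 34 for histones. The sterol element was in 1 of those 13 windows, in 1.45% of all tested genes with a window and in 1.13% of all windows. Over all genes called, a CCAAT box was in 46.9% of the windows of genes that rose and in 43.9% of those of genes that fell.

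Genes of the integrated stress response were mostly a little lower, few of them past the test. This response, run by the factor ATF4, raises amino acid synthesis, amino acid transport and tRNA charging when a cell lacks amino acids or suffers other stress. Of 37 genes tested, 7 fell and 1 rose, beside 5.25% and 7.51% of all genes tested, and 29 did not pass the test. A negative fold change was seen in 34, and the median was -0.078. ASNS, asparagine synthetase, had -0.36 ± 0.10 (adjusted p = 0.00138, authors' deposited table). SLC7A11, the cystine importer, had -0.50 ± 0.12 (adjusted p = 0.000233), and CHAC1, which degrades glutathione, had -0.56 ± 0.23 (adjusted p = 0.0103) in that table. DDIT3, a pro-apoptotic factor, and STC2, a secreted glycoprotein, had -0.26 ± 0.11 (adjusted p = 0.0154) and -0.25 ± 0.11 (adjusted p = 0.018, authors' deposited table). ATF4 had -0.18 ± 0.076 (adjusted p = 0.0243) in it. LARS, leucyl-tRNA synthetase, also fell, by 0.14 ± 0.058 (adjusted p = 0.0349), and the amino acid transporter SLC7A5 was the one that rose, by 0.15 ± 0.07 (adjusted p = 0.0476), both in the authors' deposited table. ARRDC4, an arrestin that limits glucose uptake, fell as well, by 0.43 ± 0.10 (adjusted p = 0.000107, authors' deposited table). Genes of the unfolded protein response, the endoplasmic reticulum's own branch, did not pass the test in any of 18 cases, with 1 higher and 0 lower at an unadjusted p below 0.05 in the authors' deposited table. Promoters of ASNS (chr7:97872359-97872658, minus strand, the first of 2 windows) and CHAC1 (chr15:40953221-40953520, plus strand) are shown for the composite site that ATF4 shares with C/EBP factors, TGATGNAA, which is in capitals and began 68 bases before the start of ASNS and 209 bases before that of CHAC1, where it is on the opposite strand (GRCh38.p14).
ASNS: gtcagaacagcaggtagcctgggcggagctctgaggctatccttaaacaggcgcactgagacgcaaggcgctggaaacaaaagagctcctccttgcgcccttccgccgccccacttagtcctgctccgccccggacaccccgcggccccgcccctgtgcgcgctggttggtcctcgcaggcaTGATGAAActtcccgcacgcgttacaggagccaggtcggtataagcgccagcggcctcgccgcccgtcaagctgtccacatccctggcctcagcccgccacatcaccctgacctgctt
CHAC1: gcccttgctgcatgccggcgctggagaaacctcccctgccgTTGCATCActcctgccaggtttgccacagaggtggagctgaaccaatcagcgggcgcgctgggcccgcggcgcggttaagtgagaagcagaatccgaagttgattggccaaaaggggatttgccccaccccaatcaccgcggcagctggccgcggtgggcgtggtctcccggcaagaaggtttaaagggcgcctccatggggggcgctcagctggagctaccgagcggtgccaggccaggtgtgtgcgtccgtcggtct
The site was in the window of 10 of the 27 tested genes of the list that had one and of 2 of the 5 called lower that had one, against 2.79% of all tested genes with a window and 3.62% of all windows.

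Cytosolic ribosomal protein genes were slightly lower. Of 76 tested, 17 fell, beside 5.25% of all genes tested, and 0 rose. At an unadjusted p below 0.05, 35 were lower and 2 higher in the authors' deposited table, and 68 had a negative fold change. The median was -0.085, and the largest drop was -0.24. RPL22, RPS12 and RPS27A had the smallest adjusted p, with log2 fold changes of -0.24 ± 0.067, -0.22 ± 0.066 and -0.21 ± 0.061 in the authors' deposited table (adjusted p = 0.00141, 0.00272 and 0.00301). Ribosomal protein genes have many near-identical processed pseudogenes, and how reads shared with them were counted is not given in the sources used here, so single members are uncertain. Of 28 genes that transcribe ribosomal DNA or build ribosomes, 3 rose and 0 fell, led by RRP12 with 0.24 ± 0.041 (adjusted p = 5.67e-07, authors' deposited table). Mitochondrial ribosomal proteins gave 1 riser, MRPS2, among 31 tested. The 7.51% of all genes tested that rose stands beside both of these counts.

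The cold-inducible RNA-binding proteins CIRBP and RBM3, whose transcripts rise when cells are cooled and fall when they are warmed, both fell. They had -0.35 ± 0.084 (adjusted p = 0.000257) and -0.33 ± 0.10 (adjusted p = 0.00331) in the authors' deposited table. The other 2 genes of that list did not pass the test. Thio alone, without light, gave RBM3 -0.36 ± 0.10 (adjusted p = 0.0469) against the same untreated libraries. CIRBP had -0.0098 ± 0.026 there (adjusted p = 0.791), both in the authors' deposited table for thio. That SE belongs to a value shrunken close to 0, against 0.084 for UVA, so CIRBP was not shown to be unchanged by thio. Heat shock genes after UVA gave 4 risers and 0 that fell among 20 tested, with a median of 0.042. Over all genes tested 7.51% rose. HSPH1, a co-chaperone of HSP70, had 0.33 ± 0.09 (adjusted p = 0.00146), and SERPINH1, the collagen chaperone, had 0.27 ± 0.088 (adjusted p = 0.00562, authors' deposited table). HSP90AA1, the inducible HSP90, and its cofactor CHORDC1 had 0.23 ± 0.10 (adjusted p = 0.0233) and 0.17 ± 0.073 (adjusted p = 0.0328) in that table.

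Of 33 targets of p53, the factor that answers DNA damage, 0 rose and 5 fell in the authors' deposited table, beside the 5.25% of all genes tested that fell, with 2 higher and 6 lower at an unadjusted p below 0.05. CCNG1, an atypical cyclin, had -0.23 ± 0.074 (adjusted p = 0.00517) and BBC3, the pro-apoptotic protein PUMA, had -0.32 ± 0.13 (adjusted p = 0.0135, authors' deposited table). The other targets that fell were FDXR, RRM2B and XPC, the last of which recognises damage for nucleotide excision repair (-0.13 ± 0.053, adjusted p = 0.0392 in the authors' deposited table). Repair genes were otherwise near the background: 1 of 27 excision and crosslink repair genes rose (FANCC) and 1 fell (XPC). No base excision repair gene of 24 was called in the authors' deposited table, with 2 higher and 2 lower at an unadjusted p below 0.05. NRF2 targets, the main oxidant-induced set, gave 2 risers, ME1 and the haem transporter SLC48A1, and 1 that fell, SLC7A11, among 27 tested. These counts were no higher than the 7.51% and 5.25% of all genes tested. Antioxidant enzymes, 27 tested, gave 1 riser, the secreted peroxidase GPX3 (0.20 ± 0.087, adjusted p = 0.0264 in the authors' deposited table), and 3 that fell. The largest of those drops was in SEPP1, the selenium carrier selenoprotein P, with -0.93 ± 0.23 (adjusted p = 0.000264) in the authors' deposited table at a mean level of 102. Mitochondrial superoxide dismutase SOD2 fell by 0.16 ± 0.049 in it (adjusted p = 0.00624). Among 15 ferroptosis genes, 3 fell, namely SLC7A11, CHAC1 and ACSL4, which loads membranes with polyunsaturated fatty acids (-0.29 ± 0.057, adjusted p = 9.1e-06 in the authors' deposited table). The share of all genes tested that fell, 5.25%, stands beside the antioxidant and ferroptosis counts too.

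Few proliferation genes passed the test. None of 32 G2 and M phase genes was called in the authors' deposited table, with 4 higher and 5 lower at an unadjusted p below 0.05. None of 41 replication-dependent histone genes was called there either, with 1 higher and 1 lower at that unadjusted p. Of 34 S phase genes, 5 fell and 2 rose, with 9 lower and 3 higher at an unadjusted p below 0.05. Over all genes tested, 5.25% fell and 7.51% rose. PRIM1, the small primase subunit, had -0.26 ± 0.061 (adjusted p = 0.000233), while CLSPN, the checkpoint adaptor claspin, had 0.19 ± 0.059 (adjusted p = 0.0072) in the authors' deposited table. Among 30 glycolysis and hypoxia genes, 6 fell and 2 rose, beside the 5.25% and 7.51% of all genes tested. The risers were the first steps of glucose use, hexokinase HK2 (0.35 ± 0.077, adjusted p = 6.34e-05) and the glucose transporter SLC2A1 (0.18 ± 0.05, adjusted p = 0.00172), in the authors' deposited table. Those that fell included PDK1, which keeps pyruvate out of the citric acid cycle (-0.28 ± 0.055, adjusted p = 9.52e-06), and the mitophagy receptor BNIP3 (-0.23 ± 0.062, adjusted p = 0.00135), in that table.

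Inflammatory and matrix genes, which UVA is known to raise in skin, gave 1 rise here. None of 16 metalloproteinase and collagen genes rose in the authors' deposited table, 0 being higher and 4 lower at an unadjusted p below 0.05, and 2 fell: COL9A3 with -1.19 ± 0.27 (adjusted p = 6.59e-05) and COL5A1 with -0.24 ± 0.094 (adjusted p = 0.0172). COL9A3 had the largest drop of all called genes, at a mean level of 58. None of 23 interferon-stimulated genes rose in that table, 0 being higher and 7 lower at an unadjusted p below 0.05, and 3 fell, the helicase DDX60 by most (-0.47 ± 0.17, adjusted p = 0.0068). Of 11 NF-kB and cytokine genes tested, NFKB1 rose (0.23 ± 0.061, adjusted p = 0.00117) and BIRC3, an inhibitor of apoptosis, fell (-0.60 ± 0.18, adjusted p = 0.00204), both in the authors' deposited table. Only 11 of 21 measured members of that list, 16 of 24 of the matrix list and 23 of 33 of the interferon list had enough reads to be tested. Beside these counts, 7.51% of all genes tested rose and 5.25% fell.

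The autophagy receptor SQSTM1 rose by 0.16 ± 0.039 (adjusted p = 0.00045, authors' deposited table). It was among 5 risers, against 2 that fell, of 24 autophagy and lysosome genes, beside 7.51% and 5.25% of all genes tested. In the clock list PER1 and PER2 rose and DBP fell (-0.42 ± 0.15 before shrinkage), with 0.21 ± 0.10, 0.24 ± 0.12 and -0.27 ± 0.19 in the authors' deposited table (adjusted p = 0.029, 0.0318 and 0.0491). Of 19 genes of the cytosine methylation machinery 2 rose, near the 7.51% of all genes tested. They were the oxidising enzyme TET3 and the maintenance methyltransferase DNMT1, with 0.25 ± 0.087 (adjusted p = 0.00806) and 0.11 ± 0.037 (adjusted p = 0.0157) in the authors' deposited table. The metal-responsive factor MTF1 and the zinc exporter SLC30A1 rose by 0.23 ± 0.08 and 0.19 ± 0.10 in it (adjusted p = 0.00774 and 0.0435), and the iron importer SLC11A2 fell by 0.17 ± 0.051 (adjusted p = 0.00522). Of 39 nuclear genes of oxidative phosphorylation, 2 fell, NDUFA1 and NDUFA4, near the 5.25% of all genes tested. No gene of the splicing regulator list (23 tested) or the germline list (4 tested) was called in the authors' deposited table. At an unadjusted p below 0.05 the splicing list had 3 higher and 3 lower and the germline list 0 and 0.

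Of the 15 largest risers at a mean level of 100 or more, 7 have not been given above. The netrin receptor UNC5C had 0.67 ± 0.11 (adjusted p = 7.07e-08), the adhesion protein PCDH7 had 0.54 ± 0.10 (adjusted p = 5.35e-07) and the heparan sulphate proteoglycan GPC5 had 0.55 ± 0.15 (adjusted p = 0.000723, authors' deposited table). The homeobox gene HOXB5 and the mucin MUC16 had 0.57 ± 0.20 (adjusted p = 0.00467) and 0.59 ± 0.14 (adjusted p = 0.00025) in that table. HOXB5 also had 0.46 ± 0.21 after thio alone, without light, against the same untreated libraries, with no adjusted p-value there. For UVA with thio against thio it had -0.016 ± 0.055 (adjusted p = 0.711, authors' deposited table). FAM78B and the long noncoding RNA DIRC3 completed the 15 with 0.57 ± 0.16 (adjusted p = 0.000828) and 0.62 ± 0.27 (adjusted p = 0.0131, authors' deposited table). Of the HEK293 marker genes tested, the neuronal filament INA, N-cadherin CDH2 and HOXD10 rose by 0.25 ± 0.085, 0.20 ± 0.062 and 0.21 ± 0.069 in the authors' deposited table (adjusted p = 0.00578, 0.00376 and 0.00616), and the progenitor filament NES fell by 0.35 ± 0.19 (adjusted p = 0.0268).

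At mean levels of 100 or more the largest drop was in NCKAP1L, a subunit of the actin-regulating WAVE complex. It had -0.97 ± 0.18 (adjusted p = 7.52e-07), so its level in UVA cells was 0.51 times that in untreated cells in the authors' deposited table. The retinoic acid carrier CRABP2 had -0.78 ± 0.23 (adjusted p = 0.00122) and the ferritin receptor SCARA5 had -0.72 ± 0.13 (adjusted p = 7.52e-07) in that table. The secreted serpin SERPINF1 and the lysophospholipase ENPP2, which makes lysophosphatidic acid, had -0.67 ± 0.14 (adjusted p = 4.15e-05) and -0.65 ± 0.14 (adjusted p = 4.09e-05, authors' deposited table). The receptor kinase ERBB3 fell by 0.56 ± 0.14 in it (adjusted p = 0.000232). METTL7A, KLHL41, FAXDC2 and PGM5 made up the 15, between -0.58 and -0.54.

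A second pair of groups in the same series received the same light, with 25 µM thio in both arms for 48 h: UVA with thio against thio alone. It shares no library with UVA against untreated. There UVA raised 324 genes and lowered 193, which is 2.31% and 1.37% of the 14039 genes tested. Of the 1028 genes that rose after UVA alone, 96 also rose with thio, none fell and 932 were not called, and those 96 were 29.6% of all that rose with thio. Of the 719 genes that fell after UVA alone, 43 also fell with thio, 8 rose and 668 were not called, and those 43 were 22.3% of all that fell with thio. Signs were the same for 69.6% of the first set and 76.1% of the second.

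With thio, the authors' deposited table gave SPRY4 1.02 ± 0.13, ETV5 1.03 ± 0.20, ETV4 1.00 ± 0.089 and DUSP6 1.10 ± 0.10 (adjusted p = 6.66e-14, 4.42e-06, 9.05e-27 and 2.11e-26). Of the 11 ERK genes that rose after UVA alone, 9 rose with thio too. CTGF had 1.85 ± 0.20 and AMOTL2 0.77 ± 0.10 in the authors' deposited table for that pair (adjusted p = 1.78e-17 and 1.75e-12), and 4 of the 12 YAP targets that rose did so again. Over the 19 YAP targets tested, the median was 0.023 for UVA with thio in both arms and 0.22 for UVA alone. Before shrinkage these medians were 0.13 and 0.26. CYP1B1, CYP1A1 and TIPARP had 1.16 ± 0.14, 1.21 ± 0.26 and 0.56 ± 0.074 (adjusted p = 1.4e-14, 3.21e-05 and 1.05e-12) in that table. All 5 immediate early risers rose again. Cholesterol genes fell again in 7 of the 17 cases, INSIG1 by 0.42 ± 0.079 in the authors' deposited table (adjusted p = 2.16e-06), and SREBF1 fell by 0.51 ± 0.072 (adjusted p = 1.13e-10).

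The 2 UVA effects were subtracted gene by gene, after undoing the shrinkage, to ask which genes answered UVA differently with and without thio. The difference passed an adjusted p of 0.05 for 88 genes in the upward direction and 82 in the downward direction, 0.643% and 0.599% of the 13685 genes tested. Of the 1028 genes that rose after UVA alone 62 differed, and of the 719 that fell 49 did, so for most of the calls that were absent with thio no difference could be shown. In the ERK, YAP, immediate early and aryl hydrocarbon receptor lists no member differed. The differences were -0.19 ± 0.27 for ETV5, 0.23 ± 0.14 for DUSP6, 0.27 ± 0.29 for CTGF and 0.17 ± 0.20 for CYP1B1 (SE), with adjusted p of 0.781, 0.421, 0.689 and 0.713. Such values do not show that the effects were equal.

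Many genes of the integrated stress response answered UVA differently with and without thio. Of 37 tested, 15 responded more positively to UVA with thio and 0 less, and with thio 14 rose and 1 fell. ASNS had -0.36 ± 0.10 for UVA without thio and 0.61 ± 0.10 for UVA with thio in both arms in the authors' deposited tables, and the difference of the unshrunken effects was 1.05 ± 0.14 (SE, adjusted p = 3.23e-10). CHAC1 had -0.56 ± 0.23 without thio and 0.56 ± 0.21 with it in the authors' deposited tables, a difference of 1.44 ± 0.28 (SE, adjusted p = 0.00052). DDIT3, SLC7A11 and STC2 differed by 0.79 ± 0.14, 0.91 ± 0.16 and 0.70 ± 0.14 (SE, adjusted p = 4.87e-05, 5.43e-05 and 0.000422). For ATF4 no difference could be shown: it had -0.27 ± 0.077 with thio in the authors' deposited table and a difference of -0.078 ± 0.10 (SE, adjusted p = 0.753). ARRDC4 had -0.43 ± 0.10 without thio and 0.59 ± 0.094 with it in those tables, a difference of 1.10 ± 0.13 (SE, adjusted p = 1.11e-12). In all, 8 genes fell after UVA alone and rose with thio. Beside ASNS, CHAC1, DDIT3, STC2 and ARRDC4 they were ASS1, which makes argininosuccinate, C6orf48 and SMIM14, named after their values were seen.

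**Figure D3:**
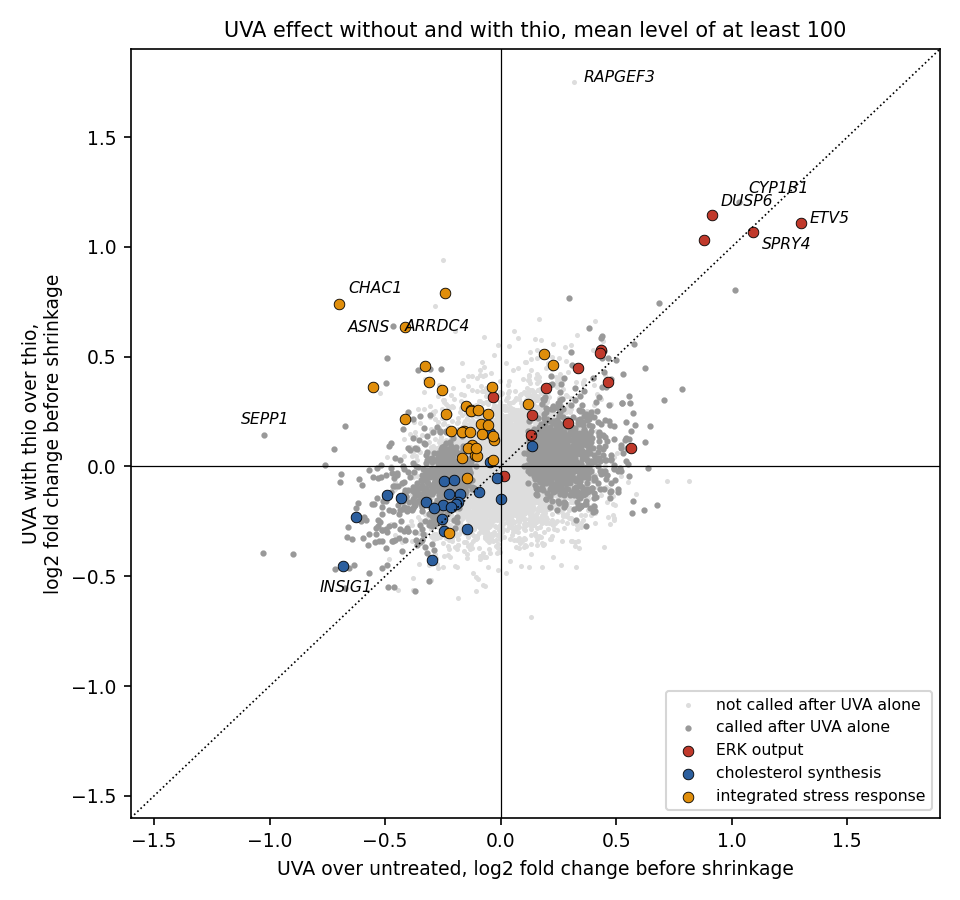
UVA effect without thio (horizontal) against UVA effect with thio (vertical), both as log2 fold changes before shrinkage, for genes whose mean level reached 100. Each point is a gene, coloured points belong to the named lists, and the dotted line marks equal effects. ERK genes lie along the line, while ASNS (-0.41 without thio, 0.63 with thio) and CHAC1 (-0.70, 0.74) lie at the upper left.

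Other genes that responded more positively to UVA when thio was present included RAPGEF3, an exchange factor activated by cyclic AMP, with a difference of 1.43 ± 0.23 (SE, adjusted p = 2.14e-06). The glycine transporter SLC6A9 and the folate enzyme ALDH1L2 differed by 1.19 ± 0.19 and 1.03 ± 0.21 (SE, adjusted p = 2.37e-06 and 0.00116), and none of these 3 was called after UVA alone. SEPP1, SERPINF1 and SCARA5, which fell after UVA alone, differed by 1.17 ± 0.31, 0.80 ± 0.20 and 0.77 ± 0.18 (SE, adjusted p = 0.0242, 0.0116 and 0.00658). With thio their values were 0.0097 ± 0.053, 0.011 ± 0.051 and 0.0011 ± 0.049 in the authors' deposited table, and 0.14, 0.081 and 0.0077 before shrinkage. IDI1, HMGCS1 and RBM3 also fell after UVA alone and differed, by 0.40 ± 0.10, 0.36 ± 0.09 and 0.60 ± 0.14 (SE, adjusted p = 0.012, 0.0136 and 0.00591). In the downward direction ARHGDIA had 0.18 ± 0.11 without thio and -0.40 ± 0.11 with it in the authors' deposited tables, and differed by -0.71 ± 0.14 (SE, adjusted p = 0.000536). The potassium channel KCNB2 and the adhesion protein PCDH7 rose after UVA alone, by 0.50 ± 0.13 and 0.54 ± 0.10 in the authors' deposited table, against -0.0073 ± 0.05 and 0.033 ± 0.056 with thio, neither of them called. Their differences were -0.60 ± 0.17 and -0.47 ± 0.13 (SE, adjusted p = 0.0481 and 0.0346). The splicing factor RBM20, the zinc finger gene BNC2 and HOXC8 showed the same pattern, with differences of -0.58 ± 0.15, -0.58 ± 0.16 and -0.73 ± 0.21 (SE, adjusted p = 0.0183, 0.0327 and 0.0492).

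Against the same untreated libraries, the authors' deposited tables also hold thio alone and UVA with thio, and these contrasts share their untreated arm with UVA alone. Thio alone raised 1 gene and lowered 5 of 10849 tested (0.00922% and 0.0461%), and UVA with thio raised 754 and lowered 582 of 14039 (5.37% and 4.15%). Of the 6, those named elsewhere here were IDI1 with -0.29 ± 0.072 and HMGCS1 with -0.27 ± 0.067 (adjusted p = 0.00906 and 0.00906), and RBM3 with -0.36 ± 0.10 (adjusted p = 0.0469), in the authors' deposited table. For IDI1 the values were -0.61 ± 0.069 after UVA, -0.54 ± 0.069 after UVA with thio and -0.29 ± 0.072 after thio in those tables, and for HMGCS1 they were -0.47 ± 0.064, -0.41 ± 0.064 and -0.27 ± 0.067. OGDH, a subunit of a citric acid cycle enzyme, was the 1 gene that thio raised, and the authors' deposited tables gave it 0.28 ± 0.045 after UVA, 0.25 ± 0.045 after UVA with thio and 0.19 ± 0.046 after thio. DUSP6 had 0.89 ± 0.10, 1.21 ± 0.10 and 0.0052 ± 0.024 in the same order and tables. The SE of 0.024 is that of a value shrunken close to 0, so it does not show how closely the thio effect was measured. A library effect in the untreated arm would enter all 3 contrasts alike and was not tested.

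**Figure D4:**
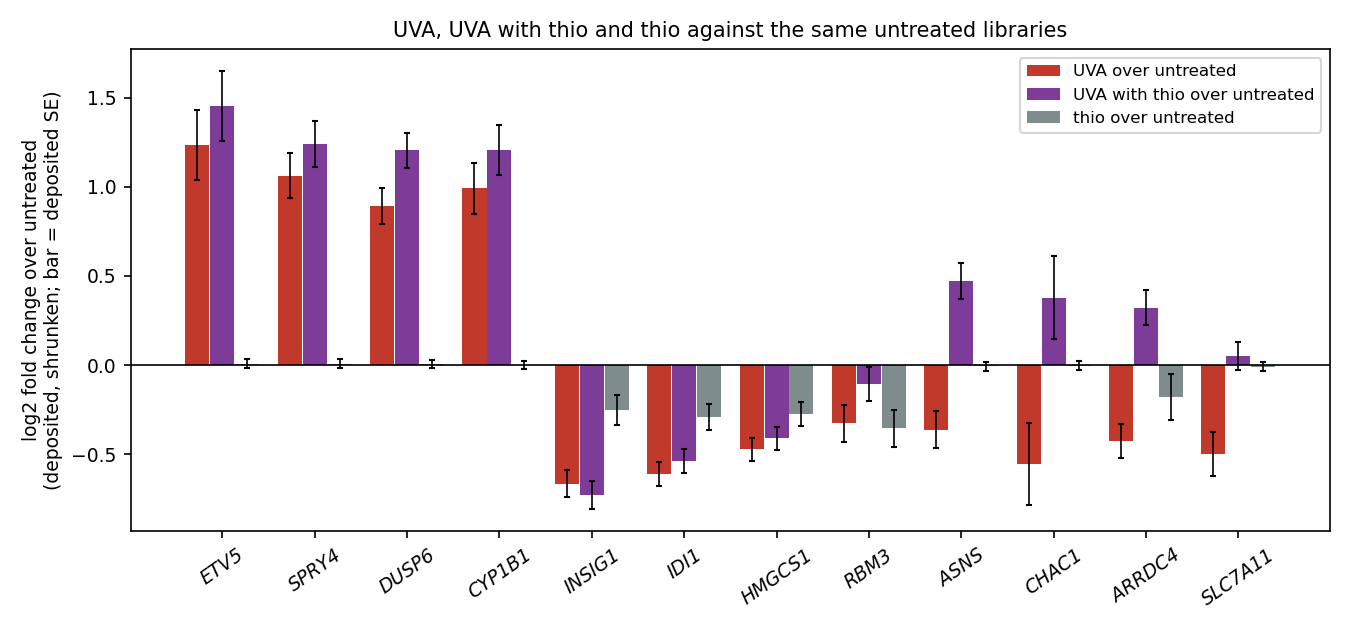
Deposited log2 fold changes over the same untreated libraries after UVA, UVA with thio and thio alone for 12 named genes, with deposited SEs as bars. Bars of thio values near 0 are narrowed by the shrinkage. The ERK and aryl hydrocarbon receptor genes are high wherever UVA was given, the cholesterol genes lie below 0 in all treatments, and ASNS lies at -0.36 ± 0.10 after UVA but at 0.47 ± 0.10 after UVA with thio.

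Reads on the opposite strand were far fewer. UVA raised the antisense reads of 32 genes and lowered those of 2 among 3671 tested, 0.872% and 0.0545%. Of the 32, 4 lay in genes whose sense reads also rose, 1 in a gene whose sense reads fell, 13 in genes whose sense reads were tested and not called and 14 in genes whose sense reads had no adjusted p-value. That 1 gene was CIRBP, with 0.41 ± 0.10 (adjusted p = 0.00175) for antisense reads and -0.35 ± 0.084 for sense reads in the authors' deposited tables. Both antisense genes that fell, CDC25C and TLK2, had uncalled sense reads, and 120 were lower at an unadjusted p below 0.05. The strongest antisense call was in the RNA helicase gene DHX8, with 0.86 ± 0.10 (adjusted p = 1.39e-14) in the authors' deposited table, while its sense reads had 0.045 ± 0.047 (adjusted p = 0.488). In RefSeq's gene table DHX8 overlaps ETV4, whose sense reads had 0.86 ± 0.09 as given above. Strands were taken from the promoter windows, which gave one for 25 of the 32 genes. Of those 25, 12 overlapped a tested gene on the opposite strand, and 6 of those 12 overlapped one whose own sense reads rose (4 distinct genes, since CENPP lies under ASPN and ECM2 and MED12L under P2RY14 and GPR171), against 7.11% of 1196 such genes whose antisense reads were not called. The overlapped genes were CENPP, which builds the centromere, with 0.35 ± 0.19 (adjusted p = 0.0297), CMSS1 with 0.36 ± 0.11 (adjusted p = 0.00191), the Mediator subunit MED12L with 0.30 ± 0.11 (adjusted p = 0.0089) and the oxytocin receptor OXTR with 0.30 ± 0.16 (adjusted p = 0.0311) per the authors' deposited table. All were named after their values were seen, and reads of one transcript counted as antisense in another gene cannot be told apart from antisense transcription here. Of the 1028 genes with higher sense reads 253 had testable antisense reads, and the median antisense fold change among these was 0.0079.

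A pair of gene properties went with the calls. The first was read number: among 5 equal groups of the tested genes ordered by mean level, the share that rose was 1.24%, 3.76%, 9.06%, 11.4% and 12.1%, low to high, while the share that fell was 4.68%, 5.99%, 5.01%, 4.90% and 5.70%. The second was length. For 2814 of the tested genes the series gives a gene-body window, the hg19 stretch in which nascent RNA was measured, and 180 of these rose and 189 fell. Among 5 equal groups ordered by window length, with median lengths of 3.31, 10.5, 19.8, 37.4 and 86.0 kb, the share that rose was 3.02%, 3.37%, 3.74%, 6.57% and 15.3%. The share that fell was 7.10%, 10.3%, 7.12%, 6.75% and 2.31%. The median mean level was 622, 981, 1489, 1813 and 2061 along those groups. In a check added after seeing the data, which took genes whose mean level reached 1000 only, the median level was 2656 in the shortest group and 3082 in the longest, and the share that rose was 4.17% and 20.9%. In UVA with thio against thio, 2.84% of the longest group rose and 4.44% of the shortest. Among the longest windows, the calcium channel RYR2, the neuronal factor NPAS3 and the presynaptic scaffold PCLO rose by 0.42 ± 0.11, 0.29 ± 0.13 and 0.36 ± 0.12 in the authors' deposited table (adjusted p = 0.000602, 0.0196 and 0.00485), named for their length after their values were seen, while CTNND2, the longest, had 0.0076 ± 0.08 (adjusted p = 0.838).

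**Figure D5:**
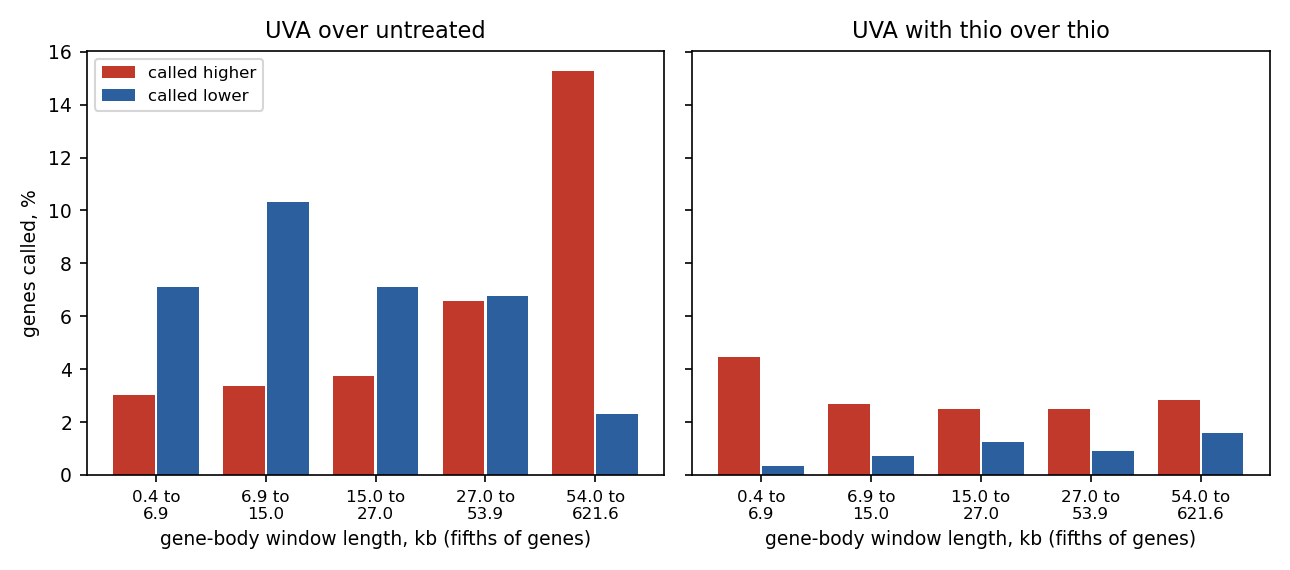
Share of genes called higher or lower in 5 equal groups of 2814 genes ordered by the length of their gene-body window in kb, for UVA over untreated (left) and for UVA with thio over thio (right). After UVA alone 15.3% of the longest group rose, against 3.02% of the shortest, and with thio 2.84% and 4.44% did.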

How the data were processed

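Total RNA depleted of ribosomal RNA was sequenced with a stranded kit, per the labels' protocols. Trim, alignment and counting settings per gene are not given in the sources used here. STAR 2.4.2, R 3.5.1 and DESeq2 1.22.1 on hg19 stand in the submitters' processing notes without a stated role, and the columns of the tables are those of DESeq2. The authors deposited as a signal value each gene's mean normalised count over all libraries of a joint fit, which is the same in each table. Fold changes and their SEs were deposited by the authors on the log2 scale, and the values show that they were shrunken toward 0. Each raw p-value and adjusted p-value is the authors' own, with a blank for filtered genes.

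Calls used the deposited adjusted p below 0.05. Of 18780 symbols, 70 had repeats, of which the row with most reads was used, 487 genes had no reads, and 13685 had an adjusted p. Shrinkage was undone under a Cauchy prior of scale 0.116 fitted to the p-values. Across 12263 genes, recovered effects of UVA with thio minus UVA alone had a correlation of 0.9999 with the recovered direct contrast. Both sides used the same SE for each gene, so this correlation cannot show whether the scale was right. The UVA effects with and without thio were subtracted and tested by z with Benjamini-Hochberg adjustment. The code was tested on simulated data. Gene-body windows came from the authors' deposited nascent RNA table (hg19 positions, used for length only). Python 3.11.15, pandas 2.3.3 and scipy 1.17.1 were used.

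Named genes were the 15 largest called changes of each direction at mean levels from 100 upward and with no clone name, up to 6 called members per list with the smallest adjusted p, TET1, and the 8 largest differences of each direction. Some genes that the rule names are left out here. Genes named beyond it were chosen after their values were seen. The comparison and the gene lists were chosen with earlier results of these data known, and some genes stand in several lists, CTGF, CYR61, FOSL1, INSIG1, ME1, SLC7A11, CHAC1 and XPC among them.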

Additional observations from a re-analysis of the deposited data

Results flagged for a closer look

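For 28 of the named genes the UVA effect with thio in both arms differed from the UVA effect without thio at an adjusted p below 0.05. The values below are the effect with thio minus the effect without it, on the log2 scale before shrinkage, and no explanation was tested.

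The largest positive differences were 1.44 for CHAC1, 1.43 for RAPGEF3, 1.19 for SLC6A9, 1.17 for SEPP1, 1.10 for ARRDC4, 1.05 for ASNS, 1.03 for ALDH1L2 and 1.02 for RINL. Further positive ones were 0.91 for SLC7A11, 0.80 for SERPINF1, 0.79 for DDIT3, 0.77 for SCARA5, 0.70 for STC2 and 0.60 for RBM3. Smaller ones were 0.47 for INA, 0.40 for IDI1, 0.36 for HMGCS1 and 0.34 for RPS12.

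INA is the only one of these that UVA raised both without and with thio, by 0.25 ± 0.085 and 0.74 ± 0.08 in the authors' deposited tables. Negative differences were -0.73 for HOXC8, -0.71 for ARHGDIA, -0.64 for OTUD7A, -0.60 for KCNB2, -0.59 for FARS2, -0.58 for RBM20, -0.58 for BNC2, -0.57 for ROR2, -0.47 for PCDH7 and -0.32 for HOXD10.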

How the results depend on the processing

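UVA raised 415 and lowered 273 genes at an adjusted p below 0.01, lowered 1110 at 0.1, and raised 350 and lowered 262 with a log2 change of at least 0.25. A normal p of the deposited fold change over its shrunken SE gave 277 and 175. The remaining settings for these counts moved them by less than 1.5 times. They were no filter on low counts, a mean level of at least 100, centring, and all rows of repeated symbols. Centring before shrinkage, added after seeing the data, gave 974 and 744. Differences with thio numbered 35 higher and 26 lower with the deposited shrunken values, and 167 and 204 at 0.1. At 0.1 in the thio pair, 71 of the lowered genes fell again. Antisense calls were 63 higher and 5 lower at 0.1, and 12 and 1 without the filter. FOSL1 lost its call on centring. At 0.1, 25 of 80 list counts moved by over 1.5 times. All 154 named values had the same sign before shrinkage.

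No paired analysis was possible because the tables hold no value per sample. For the same reason no library was left out in turn, a change that rests on 1 library cannot be seen, and the depth of each library is unknown.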
